A study of Mus musculus with 17 samples.

Results

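The step examined here runs from 150 to 240 min to 300 to 420 min after withdrawal of growth factors from cultured mouse neural precursor cells. It compares the 3 arrays labelled 300, 360 and 420 min with the 3 arrays labelled 150, 180 and 240 min, 6 of the 17 arrays of the series. The cells came from the adult hippocampus and had been grown on poly-D-lysine and laminin in Neurobasal medium with B27, GlutaMAX, basic fibroblast growth factor (bFGF) and epidermal growth factor (EGF). Both factors were withdrawn in all 6 samples, so the groups share this treatment, and time is the difference that the labels give. Whether the arrays come from 1 culture or several is not given. Total RNA was hybridised to Illumina bead arrays with 1 array per time, the labels name no genotype, sex or age of the source animals, and they list no parallel culture left in the growth factors. Neighbouring times take the place of replicates, and the p-values reflect how far times within a window differ, not how far separate cultures would.

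Precursor cells of the adult hippocampus divide while bFGF and EGF keep the ERK and phosphoinositide kinase pathways active. When these signals are lost, FOXO transcription factors are no longer held in the cytoplasm, and the supply of D-type cyclins and ribosomes that growth requires can decline. ATF4 is the central transcription factor of the integrated stress response, in which translation is slowed while genes for amino acid supply, redox balance and, under longer stress, cell death are transcribed. ATF3 is a stress-induced member of the same protein class.

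Values are log2 signals, in which 1 unit is a doubling, and changes are later minus earlier window means with the standard error (SE) of a linear model fitted across all genes with limma. A gene rose or fell where its Benjamini-Hochberg adjusted p over 9940 features was under 0.05. Of these features, 1052 changed (10.6%), 468 upward (4.71%) and 584 downward (5.88%). These are the shares to set beside each gene list count below. Among the 1052, 20 rose and 28 fell by at least 2-fold. The median change was 0.50 among the rises, -0.54 among the falls and 0.00 over all features. The 3 later arrays lay above all 3 earlier ones for 1352 features (13.6%) and below them for 1326 (13.3%). The count depended on single arrays, with 151 rises and 212 falls without 150 min, 186 and 239 without 420 min, 231 and 294 without 180 min, and 231 and 292 without 360 min. The 6 arrays had a lowest pairwise correlation of 0.988 over all probes.

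A few genes of the stress response fell steeply. Of 28 genes of the integrated stress response above the filter on dim probes, 6 fell, 1 rose and 21 did not pass the test, with a median change of -0.17. Chac1, an enzyme that degrades glutathione, had the largest fall of all named genes. The promoters of 3 genes that fell, Chac1, Fgf21 and the endoplasmic reticulum (ER) gene Herpud1, are shown because they share the letters of the C/EBP-ATF composite element, the kind of site that ATF4 binds together with C/EBP proteins. Each run is the 250 bases before the RefSeq gene start of build GRCm38.p6, read 5′ to 3′ on the gene's strand, and capitals mark matches to TGATGNAA or CACGTG on either strand.
Chac1, chr2:119350992-119351241, plus strand: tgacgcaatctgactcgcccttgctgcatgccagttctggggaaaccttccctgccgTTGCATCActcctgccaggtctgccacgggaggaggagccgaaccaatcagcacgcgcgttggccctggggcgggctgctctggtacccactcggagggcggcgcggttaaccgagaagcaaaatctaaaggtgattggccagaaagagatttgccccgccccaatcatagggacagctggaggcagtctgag
Fgf21, chr7:45615491-45615740, minus strand: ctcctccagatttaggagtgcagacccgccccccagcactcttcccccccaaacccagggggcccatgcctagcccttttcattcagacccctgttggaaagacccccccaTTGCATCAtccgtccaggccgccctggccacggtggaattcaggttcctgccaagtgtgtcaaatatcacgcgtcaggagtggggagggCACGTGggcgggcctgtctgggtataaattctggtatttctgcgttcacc
Herpud1, chr8:94386179-94386428, plus strand: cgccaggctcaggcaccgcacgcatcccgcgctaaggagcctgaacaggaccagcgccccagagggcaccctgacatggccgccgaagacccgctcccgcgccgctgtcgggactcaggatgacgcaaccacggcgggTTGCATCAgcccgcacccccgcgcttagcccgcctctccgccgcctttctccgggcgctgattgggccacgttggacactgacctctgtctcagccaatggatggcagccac

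The element lay on the opposite strand in all 3, beginning 193 bases before the start in Chac1, 139 in Fgf21 and 112 in Herpud1. The letters CACGTG, an E-box, lay 50 bases before the start of Fgf21 and were also in 5 other promoters, those of Klf4, Cited2 and Dhcr7, which fell, and of Egr2 and Hopx, which rose. Of the 49 named genes with a promoter in the table, of 55 looked up, these were the 3 that held TGATGNAA. Over all 32544 promoters of 300 bases, from 250 before to 50 after a start, 3.91% held TGATGNAA and 7.17% held CACGTG. These shares are per promoter, while a gene with several promoters was counted where any of them matched, so the counts and shares are not like for like. The promoters of Atf4, Sesn2 and Stc2 held neither, and a match of letters is a description of the sequence, not of binding. Of the other letters searched, GTAAACA for FOXO factors, TTTCCCGC for E2F and TGACTCA for AP-1, Txnip held the first, Cdc6 the second, and Neu1 and Dhcr7 the last. In all promoters their shares were 3.66%, 1.08% and 5.19%. The E-box of Dhcr7 and of Hopx lay in promoter 2 of each gene, and the AP-1 letters of Dhcr7 in its promoter 3.

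Chac1 stood at 13.19, 12.69 and 11.90 at 150, 180 and 240 min and at 11.32, 10.24 and 9.39 at 300, 360 and 420 min. It was lower at each successive time, and the windows did not overlap. At 0 min Chac1 had stood at 10.61, between its 300 and 360 min values. The fall was 4.85-fold (2.28 on the log2 scale, SE 0.45, adjusted p = 0.00296), with window means of 12.59 ± 0.65 and 10.31 ± 0.97 (SD, n = 3 times each). Fgf21, a secreted hormone of the fibroblast growth factor family, was at 8.39, 7.87 and 7.86 and then at 7.51, 6.38 and 5.97, and fell by 1.42 (adjusted p = 0.00256). Its 300 min array was close to the earlier window, and its 360 and 420 min signals lay below the filter value of 6.41 and cannot be separated from background, so the fall of the transcript may be larger than the 1.42 measured. Sesn2, a leucine sensor that restrains mTORC1, was at 10.24, 9.88 and 9.61 and then at 9.08, 9.03 and 8.79. All 3 later values were below the earlier ones, and Sesn2 fell by 0.94 (adjusted p = 0.00254). Stc2, a secreted glycoprotein, fell by 0.69 (adjusted p = 0.00241).

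Atf4 was at 13.67, 13.50 and 13.34 at 150, 180 and 240 min and at 13.17, 12.64 and 12.68 at 300, 360 and 420 min. The windows did not overlap, although 300 min lay near 240 min, and the largest drop was between 300 and 360 min. Atf4 fell 1.60-fold (log2 change -0.67, SE 0.17, adjusted p = 0.0139). The call ended without the 150 min array (change -0.59, adjusted p = 0.0868), the 360 min array (adjusted p = 0.0799) or the 420 min array (adjusted p = 0.0766). The Atf3 probe was dim and lay below the filter, so it was tested in the same model without the filter. It was at 7.04, 6.70 and 6.49 in the earlier window and 6.29, 6.08 and 6.05 in the later one. The windows did not overlap, every time was below the one before it, and the measured fall was 0.60 (SE 0.14, adjusted p = 0.0132). All later Atf3 values lay below 6.41, where background cannot be separated. Whether the call of Atf3 held without single arrays was not examined, so its stability cannot be set beside that of Atf4.

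The other genes of the response did not move as one. Cebpb, a transcription factor that acts with ATF4, fell by 0.58, while Gpt2, the mitochondrial alanine transaminase, rose by 0.51. Cebpb was at 10.23, 9.84 and 9.29 and then at 9.32, 9.00 and 9.32, so its windows overlapped (adjusted p = 0.0391). Whether the calls of Cebpb and Gpt2 held without single arrays was not examined. Trib3, a pseudokinase that ATF4 induces, had a change of -1.53 (SE 0.50) that did not pass (adjusted p = 0.0524). Its 3 earlier values were 11.24, 11.36 and 11.07, its later values 10.72, 9.41 and 8.96. Ddit3, which encodes the pro-apoptotic factor CHOP, had a change of -0.68 (adjusted p = 0.0921). Genes of amino acid synthesis lay near their earlier level, with changes that did not pass of 0.14 in Asns (asparagine), 0.21 in Psat1 and 0.07 in Phgdh (both serine). Of 13 tRNA synthetase genes, 0 rose and 0 fell by limma's adjusted p and 1 had an unadjusted p under 0.05, with a median change of -0.04, and in the following step 5 fell.

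**Figure D1:**
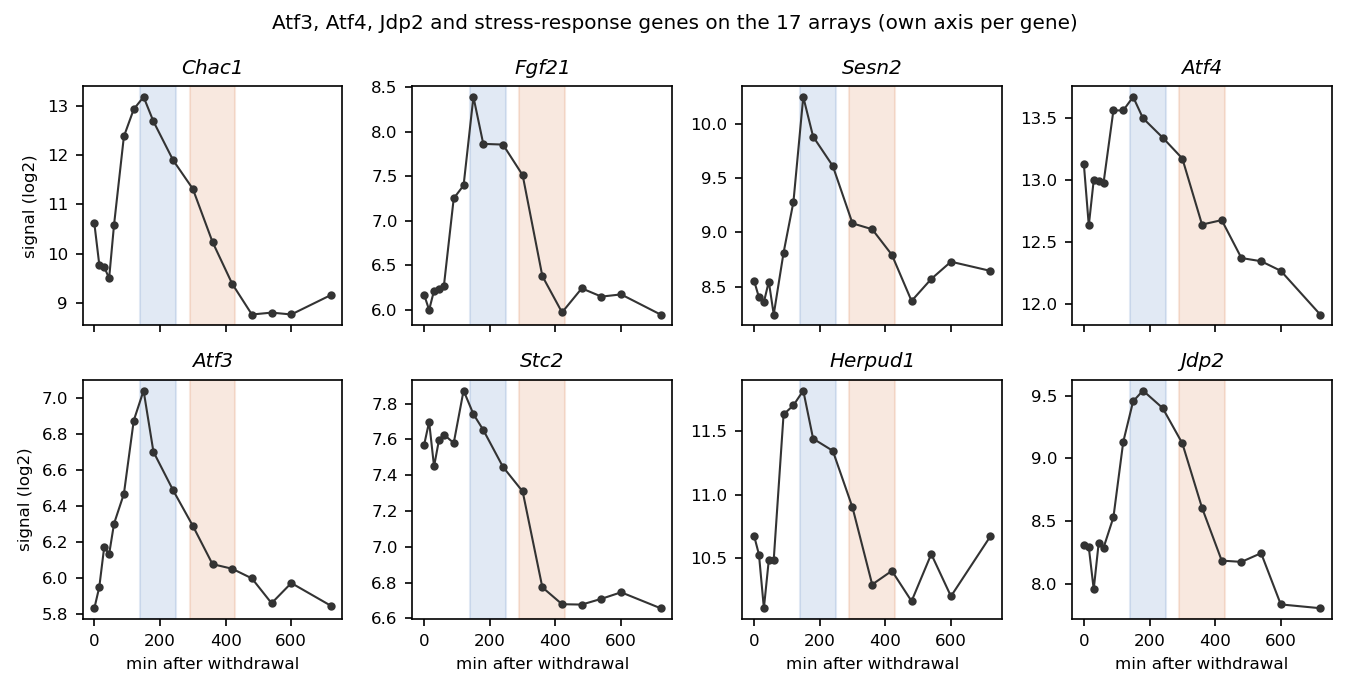
Signal (log2, own axis per gene) on all 17 arrays against minutes after withdrawal for Atf3, Atf4, Jdp2 and stress-response genes, with the 150 to 240 min window shaded blue and the 300 to 420 min window shaded orange. Each point is 1 array. Chac1 went from 13.19 at 150 min to 9.39 at 420 min.

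Of 19 genes for ER chaperones and the unfolded protein response, 2 fell, 1 rose and 16 did not pass. Over all features 10.6% changed, the share to set beside this count and that of the p53 targets below. Herpud1, which takes part in degradation of ER proteins, was at 11.82, 11.44 and 11.35 and then at 10.90, 10.30 and 10.40, a 2.00-fold fall (adjusted p = 0.00973) without overlap. At 0 min Herpud1 had stood at 10.68, within the range of its later window. Creld2, an ER-resident secretory factor, fell by 0.46, and Xbp1, a transcription factor of the unfolded protein response, rose by 0.57. Leaving out 150 min ended all 3 calls, with adjusted p = 0.0706 for Herpud1, 0.120 for Creld2 and 0.123 for Xbp1. The call of Herpud1 also ended without 360 or 420 min, and those of the other two without 180, 360 or 420 min. Of 17 p53 target genes, 0 rose and 2 fell, Sesn2, which the stress response list also holds, and Pmaip1, a pro-apoptotic BH3-only gene (fell by 0.46). Pmaip1 did not pass without 150 min (adjusted p = 0.0806), 360 min (0.0737) or 420 min (0.0961).

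Genes of entry into S phase were the list with the most falls. Of 26 genes of G1/S and DNA replication, 9 fell, 0 rose and 17 did not pass, with a median change of -0.36. Ccnd1, cyclin D1 of G1, was at 13.24, 12.83 and 12.83 and then at 12.07, 11.61 and 11.96, and fell 2.12-fold (adjusted p = 0.000427). Ccnd2, cyclin D2, was at 12.05, 11.59 and 11.54 and then at 11.08, 10.27 and 10.15, and fell 2.33-fold (adjusted p = 0.000713). Neither cyclin overlapped between the windows, and each was lower in every later array than at 240 min. The replication licensing genes Cdt1 and Cdc6 fell by 0.91 and 0.82. E2f1, a transcription factor of S phase genes, was at 10.67, 10.79 and 10.49 and then at 10.34, 9.63 and 9.44 and fell by 0.85, with adjusted p = 0.00787, or 0.0647 without the 420 min array. Gins2, Mcm2, Mcm4 and Mcm6, all of the replicative helicase, fell by 0.42 to 0.61. Ung, a uracil-DNA glycosylase of base excision repair that is outside the list, was at 10.30, 10.20 and 9.09 and then at 8.65, 8.59 and 8.50, and fell 2.44-fold (adjusted p = 0.00134).

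No mitotic gene passed the test in this step. Of 19 genes of G2/M and mitosis, 0 rose and 0 fell by limma's adjusted p, and 1 had an unadjusted p under 0.05, with a median change of 0.12. Mki67, the proliferation marker, had a change of 0.24 and Cdk1, the mitotic kinase, of 0.00, neither of which passed. In the following step, 300 to 420 against 480 to 720 min, 6 mitotic and 14 G1/S genes fell. The difference between these lists was not tested. Of 6 inhibitors of cyclin-dependent kinases, 1 rose, Cdkn1c. It was at 7.88, 7.99 and 8.42 and then at 8.93, 8.96 and 9.04, higher at each successive time, and rose 1.84-fold (adjusted p = 0.00492).

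Some genes of ribosome production also fell. Of 24 genes of ribosome biogenesis and MYC targets, 7 fell, 0 rose and 17 did not pass, with a median change of -0.21. Srm, spermidine synthase, was at 10.82, 10.72 and 10.28 and then at 9.54, 9.52 and 8.94, and fell 2.41-fold (log2 change -1.27, SE 0.15, adjusted p = 9.76e-05). All later values lay below the lowest earlier one. The nucleolar genes Noc2l, Ncl, Rrp9 and Nop56 fell by 0.81, 0.68, 0.66 and 0.63. Ncl did not pass without 360 min (adjusted p = 0.0565) and Nop56 without 420 min (adjusted p = 0.0586). Mrto4, a ribosome assembly factor, fell by 0.45 and Polr1a, a subunit of RNA polymerase I, by 0.40. Myc itself was below the filter, with a change of 0.34 that did not pass without the filter.

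Part of the sterol synthesis pathway fell in this step. Of 16 genes of the pathway, 4 fell, 0 rose and 12 did not pass, and 14 had a change below 0, with a median of -0.37. In the step before, 0 rose and 0 fell by limma's adjusted p and 1 had an unadjusted p under 0.05, and in the step after, 10 fell. Lss, lanosterol synthase, was at 9.90, 10.12 and 9.67 and then at 9.06, 9.26 and 9.20. The windows did not overlap, and Lss fell by 0.72 (SE 0.15, adjusted p = 0.00377). Mvd, Cyp51 and Dhcr7, enzymes before and after lanosterol, fell by 0.53, 0.51 and 0.49. These 3 calls were less stable, and without 180 min the adjusted p was 0.0723 for Mvd, 0.111 for Cyp51 and 0.162 for Dhcr7. They also ended without 150 or 300 min, and those of Cyp51 and Dhcr7 without 360 or 420 min.

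**Figure D2:**
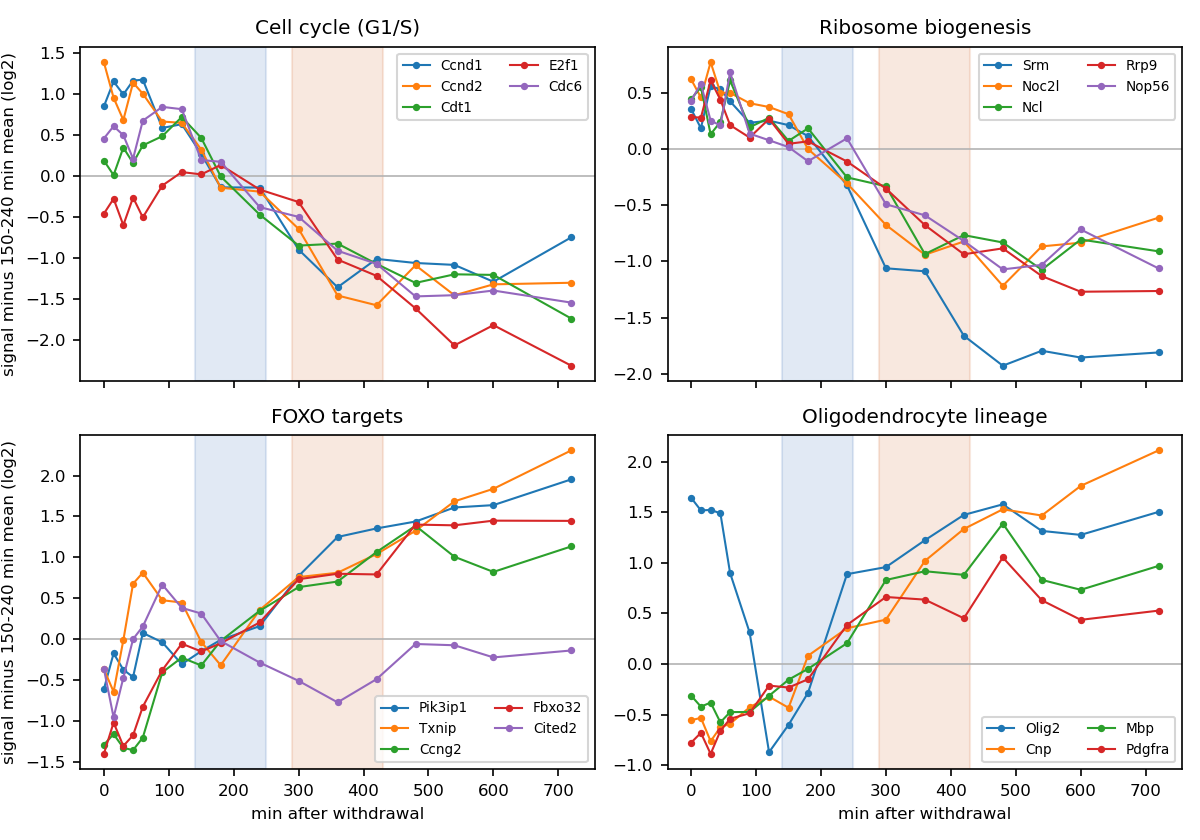
Signal minus each gene's own mean at 150 to 240 min (log2) against minutes after withdrawal, for genes of 4 groups on all 17 arrays, with the earlier window shaded blue and the later one orange. Srm, Ccnd1 and Cdt1 lie below 0 on every array from 300 min on, and Pik3ip1, Fbxo32 and Mbp above 0.

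More targets of FOXO factors rose than fell. Of 19 above the filter, 4 rose, 1 fell and 14 did not pass, with a median change of 0.23. Pik3ip1, an inhibitor of phosphoinositide kinase, was at 7.30, 7.44 and 7.61 and then at 8.22, 8.70 and 8.80, and rose 2.18-fold (adjusted p = 0.000184). In the step before it had a change of 0.09 that did not pass. Fbxo32, a ubiquitin ligase gene of protein breakdown, was at 7.23, 7.33 and 7.58 and then at 8.11, 8.18 and 8.17, and rose by 0.77 (adjusted p = 0.00180). Neither gene overlapped between the windows. Ccng2, an unconventional cyclin linked to cell cycle arrest, rose by 0.80, and Txnip, an inhibitor of thioredoxin and glucose uptake, by 0.87. Cited2, a transcriptional coregulator, fell by 0.59. The call of Ccng2 ended without 150 min (adjusted p = 0.0947) or 420 min (0.0788). Those of Txnip and Cited2 ended without any 1 of 150, 180, 360 or 420 min, with adjusted p up to 0.143 for Txnip (without 180 min) and 0.217 for Cited2 (without 150 min).

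Of 19 lysosome and autophagy genes, 4 rose, 0 fell and 15 did not pass, and the median change was 0.21. Gabarapl1, an autophagosome protein of the Atg8 family, was at 9.22, 9.30 and 9.36 and then at 9.72, 9.86 and 9.65 and rose by 0.45. Neu1, a lysosomal sialidase, rose by 0.41, Wipi2, which acts in autophagosome formation, by 0.41, and the autophagy-initiating kinase Ulk1 by 0.38. All 4 shifts were small, and the windows of Wipi2 overlapped, with 8.78 at 240 min and 8.76 at 300 min. Without 150 min none of the 4 passed, with adjusted p = 0.0725 for Gabarapl1, 0.0532 for Neu1, 0.143 for Wipi2 and 0.0881 for Ulk1. Without 360 min Gabarapl1, Wipi2 and Ulk1 did not pass, without 180 min Wipi2 and Ulk1 did not, and without 420 min Wipi2 did not.

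Signalling genes downstream of growth factors went in both directions. Of 9 ERK feedback genes, 2 rose and 1 fell. Etv4, an ETS transcription factor induced by fibroblast growth factor signalling, was at 8.35, 8.52 and 8.22 and then at 7.50, 7.23 and 6.84, and fell 2.26-fold (adjusted p = 0.000122). Phlda1, a pleckstrin-homology domain protein, was at 8.03, 7.98 and 9.13 and then at 9.19, 9.42 and 9.46 and rose by 0.98, with 240 min close to the later window. Its adjusted p was 0.00602, and 0.0544 without 150 min. Etv1, a paralogue of Etv4, rose by 0.48, but did not pass without 150, 180, 300 or 420 min (adjusted p up to 0.181, without 150 min). Dusp6, an ERK phosphatase, had a change of 0.65 that did not pass (adjusted p = 0.305).

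Of 10 immediate early genes, 2 rose and 1 fell. Klf4, a zinc finger factor, was at 9.11, 9.01 and 8.50 and then at 8.18, 7.65 and 7.56, and fell 2.10-fold (adjusted p = 0.00294) without overlap. At 0 min Klf4 had stood at 7.48, so its later values were not below the starting level. Egr2 and Jun rose by 0.53 (adjusted p = 0.0467) and 0.48 (adjusted p = 0.0496), close to the threshold. At 0 min they had stood at 8.33 and 8.63, above all their values in the later window. Leaving out any 1 of 150, 180, 300, 360 or 420 min ended both calls, with adjusted p up to 0.232 for Egr2 (without 180 min) and 0.196 for Jun (without 150 min). Egr1 had a change of 0.78 that did not pass (adjusted p = 0.0603), and its 240 min value of 11.41 lay above its 300 min value of 11.17.

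Both Notch effectors that rose had their highest signal of the 17 arrays in the later window. Of 16 Notch pathway genes, 2 rose, 0 fell and 14 did not pass, with a median change of 0.03. Hey1, a transcriptional repressor activated by Notch, was at 10.55, 10.68 and 10.93 and then at 11.60, 11.38 and 11.17, rose by 0.66 (adjusted p = 0.00230) and fell by 0.44 in the following step. Hes5, a repressor of the same family, was at 8.28, 9.34 and 9.19 and then at 9.71, 9.72 and 9.61 and rose by 0.74 (adjusted p = 0.0267). The 150 min array was the lowest of the 6, and without it the change was 0.41 (adjusted p = 0.210). The call of Hes5 also ended without 300, 360 or 420 min. The dim ligand gene Dll3 rose by 0.50 without the filter.

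Of 16 Wnt pathway genes, 3 fell and 1 rose. Fzd5, a Wnt receptor, was at 10.42, 9.97 and 9.54 and then at 9.27, 8.70 and 8.72 and fell 2.11-fold (adjusted p = 0.00730, and 0.0653 without 150 min). The receptor Fzd1 fell by 0.65 and the ligand Wnt7a by 0.64, the latter with a change of -0.41 and adjusted p = 0.0860 without 150 min. Tcf7l2, a transcription factor that binds beta-catenin, was at 8.58, 8.46 and 8.48 and then at 9.15, 9.34 and 9.15 and rose by 0.70 (adjusted p = 0.000854). Its 3 earlier and 3 later values were each closer together than the windows were apart.

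Of 20 axon guidance genes, 2 rose and 2 fell. Draxin, a secreted guidance protein and Wnt inhibitor, was at 8.71, 9.23 and 9.35 and then at 10.06, 10.27 and 10.59, higher at each time, and rose 2.31-fold (adjusted p = 0.00134). Plxnb3, a plexin receptor for semaphorins, rose by 0.84, and the ephrin ligand genes Efnb1 and Efnb2 fell by 0.56 and 0.48. Plxnb3 and Efnb1 overlapped between the windows, since Plxnb3 was at 7.82 at 180 min and 7.81 at 300 min, and Efnb1 at 9.46 at 240 min and 9.50 at 300 min. Their calls ended without 150 min (adjusted p = 0.0619 and 0.0963) or 420 min, and that of Efnb1 also without 180 or 360 min. Efnb2 did not pass without 150 min (adjusted p = 0.0509), 180 min (0.0927) or 360 min (0.0799). Efnb2 was at 6.82, 7.01 and 6.76 and then at 6.44, 6.28 and 6.44, with a mean over all arrays of 6.49. Its later values lay at the level of the filter, where background cannot be separated, so its fall of 0.48 was measured near background.

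**Figure D3:**
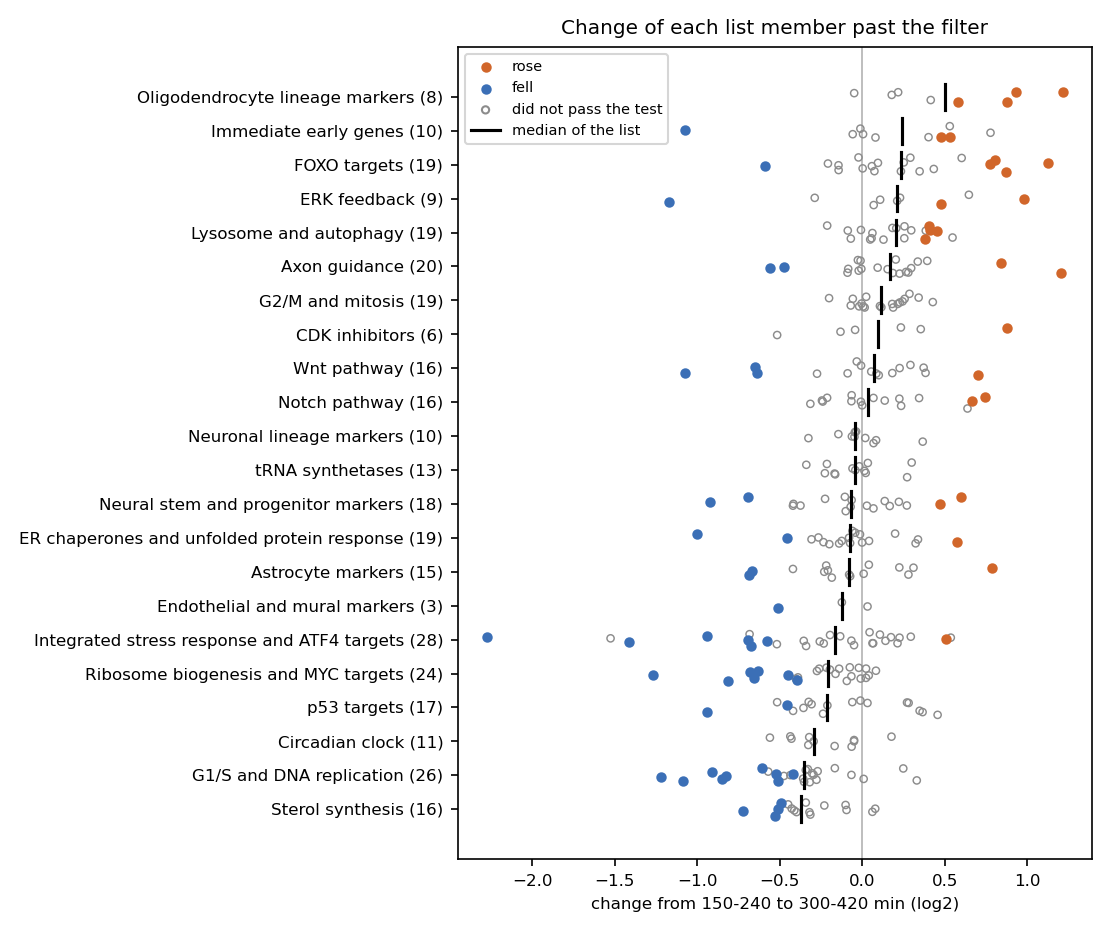
Change from 150-240 to 300-420 min (log2, horizontal axis) of each member above the filter of 22 gene lists (vertical axis, number of members in brackets), with genes that rose in orange, genes that fell in blue, other members as open circles and the list median as a black line. Medians run from -0.37 for sterol synthesis to 0.50 for oligodendrocyte lineage markers. Some genes are in more than 1 list.

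Of 24 neural stem and progenitor markers on the array, 18 were above the filter and 6 below it. Sox2 and Vim, picked after their values were seen, lay between 9.64 and 10.11 and between 12.94 and 13.47 over the 6 arrays. Of 18 neural stem and progenitor markers, 2 rose, 2 fell and 14 did not pass. Nes, the intermediate filament nestin, was at 11.76, 11.73 and 11.73 and then at 11.01, 11.28 and 10.87, and fell 1.61-fold (adjusted p = 0.000721). Gli3, a transcription factor of Hedgehog signalling, was at 10.25, 10.17 and 10.17 and then at 9.40, 9.23 and 9.17, and fell 1.90-fold (adjusted p = 9.76e-05). In both genes the drop between 240 and 300 min exceeded the spread within either window. The inhibitor of differentiation Id3 rose by 0.60 and Hopx, a homeodomain-only protein, by 0.47. Neither passed without any 1 of 150, 180, 360 or 420 min, with adjusted p up to 0.277 for Id3 (change 0.37 without 420 min) and 0.127 for Hopx (without 360 min). The dim Id4 rose by 0.63 without the filter.

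Oligodendrocyte lineage markers above the filter had the highest list median, 0.50, with 4 of 8 members up and 0 down. A further 9 were below the filter, of which 1 rose when tested without it. The median and the count include Mbp, which passed the filter through its later, higher arrays. Olig2, a transcription factor of the lineage, was at 6.93, 7.25 and 8.42 and then at 8.49, 8.76 and 9.01. It had started higher, at 9.18, 9.05, 9.06 and 9.03 at 0, 15, 30 and 45 min, and was at 6.66 at 120 min. Its values in the later window were thus a return towards the starting level and not above it. The windows were separated only by the gap between 8.42 at 240 min and 8.49 at 300 min, so most of the increase came before 300 min. Its 2.33-fold rise (adjusted p = 0.0163) did not pass without 150 min (change 0.92, adjusted p = 0.123), 180 min (0.0845), 360 min (0.0566) or 420 min (0.0814), nor with a trended, robust variance (0.0527). Cnp, a myelin-associated enzyme, was at 7.90, 8.41 and 8.68 and then at 8.77, 9.35 and 9.66 and rose by 0.93 (adjusted p = 0.00492, and 0.0503 without 150 min). Mbp, myelin basic protein, was at 6.24, 6.35 and 6.60 and then at 7.22, 7.31 and 7.27 and rose by a measured 0.88 (adjusted p = 0.000517). Its values up to 180 min lay below 6.41, where background cannot be separated, and it passed the filter through its later arrays. Pdgfra, a receptor of oligodendrocyte progenitors, rose by 0.58, but not without 150, 180 or 360 min (adjusted p up to 0.124, without 150 min). Olig1, bright in all 6 arrays at 14.21 to 14.75, did not pass. Sox10, Mag and Mog lay below the filter, and Sox10 was between 5.70 and 5.99. In such bulk RNA, more cells of a type and more RNA per cell cannot be told apart.

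Counts for markers of other cell types stand beside the 10.6% of all features that changed. Of 10 neuronal lineage markers, 0 rose and 0 fell by limma's adjusted p, 1 had an unadjusted p under 0.05, and 16 more, among them Dcx and Tubb3, were below the filter. Of 15 astrocyte markers, S100b rose by 0.79, and Cd44 and Glul, glutamine synthetase, fell by 0.69 and 0.67. All 3 calls ended without 150 min (adjusted p = 0.0756, 0.0860 and 0.0794). Those of S100b and Cd44 ended without 420 min, and that of Glul without 180 or 300 min. Cd44 overlapped between the windows, at 9.27 at 240 min and 9.34 at 300 min. All 14 microglia and macrophage markers were below the filter, with list means of 6.00 to 6.02 in the earlier and 5.97 to 6.05 in the later arrays. Of 3 endothelial and mural markers above the filter 1 fell, Flt1 (by 0.51), with adjusted p = 0.0542 without 180 min and 0.0523 without 420 min. A further 12 were below the filter. Of 11 circadian clock genes, 0 rose and 0 fell by limma's adjusted p, 10 had a change below 0 and 5 had an unadjusted p under 0.05, with a median change of -0.30.

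Over all named genes without overlap, the 12 largest rises were 2.10 to 2.45-fold and the 12 largest falls 2.26 to 4.85-fold. Gucy1b2, a subunit of soluble guanylate cyclase, was at 6.98, 7.11 and 7.56 and then at 8.29, 8.69 and 8.55, and had the largest rise (2.45-fold, log2 change 1.29, SE 0.15, adjusted p = 9.76e-05). Pak3, a kinase activated by Rac and Cdc42, was at 8.47, 8.38 and 9.39 and then at 9.99, 10.25 and 9.81, with 240 min between the other earlier times and the later window (2.41-fold, adjusted p = 0.000697). Pik3r3, a regulatory subunit of phosphoinositide kinase, rose 2.11-fold to 11.72, 12.22 and 12.26, and its 240 min value was 11.48.

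Soga3 was at 9.47, 9.44 and 9.51 and then at 10.25, 10.79 and 10.68, flat in the earlier window, and rose 2.14-fold (adjusted p = 9.76e-05). Gbp2, an interferon-induced GTPase, was at 6.95, 7.16 and 7.33 and then at 7.87, 8.34 and 8.79, and rose 2.28-fold (adjusted p = 0.000517). In the step before, their changes of 0.15 and 0.13 did not pass. Fbp1, the gluconeogenic fructose bisphosphatase, Igsf11, a cell adhesion gene, and Fbxo2, a ubiquitin ligase subunit that recognises glycoproteins, rose by 1.26, 1.08 and 1.07, and all 3 had also risen in the step before.

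Among the falls outside the lists, Slc4a4, a sodium bicarbonate cotransporter, was at 9.77, 8.97 and 8.77 and then at 8.03, 7.80 and 7.36, and fell 2.71-fold (adjusted p = 0.000292). Grm5, a metabotropic glutamate receptor, was at 10.16, 10.02 and 9.36 and then at 8.57, 8.60 and 8.23, and fell 2.60-fold (adjusted p = 0.000133). Lor, which encodes loricrin of the skin's cornified envelope, was at 8.93, 8.98 and 8.18 and then at 7.82, 7.44 and 7.29, and fell 2.27-fold (adjusted p = 0.000184). Windows without overlap were a condition for all of the 12 largest rises and 12 largest falls, these 3 among them. Gsc, a homeobox gene, and Zbtb7c, a zinc finger gene, fell by 1.23 and 1.24.

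**Figure D4:**
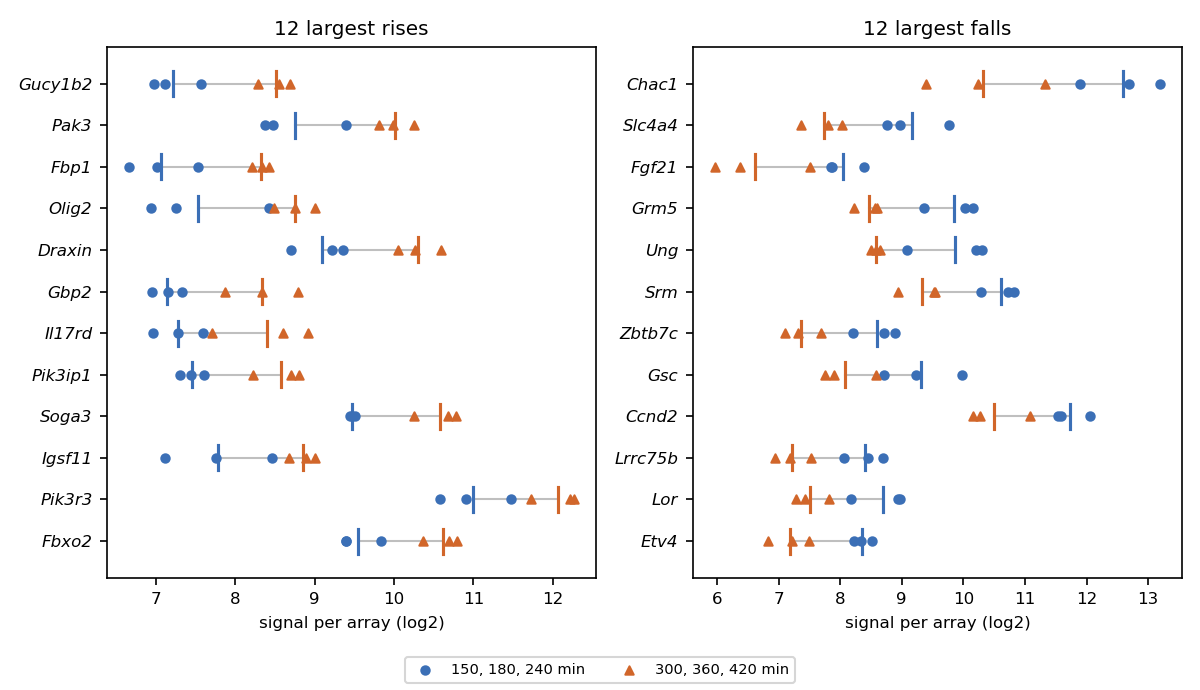
Signal per array (log2, horizontal axis) of the 12 genes with the largest rises (left) and the 12 with the largest falls (right) among those whose windows did not overlap. Circles are the 150, 180 and 240 min arrays, triangles the 300, 360 and 420 min arrays, and vertical ticks the window means. The gap between the windows is narrowest in Olig2, at 8.42 and 8.49.

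The step was set against its neighbours to find genes whose change differed. The preceding step, from 60 to 120 min to 150 to 240 min, had 319 rises (3.21%) and 348 falls (3.5%), and the following step, to 480 to 720 min, 498 rises (5.01%) and 410 falls (4.12%). Each neighbour shares a window of arrays with this step, which enters both changes with opposite sign, so a large value in the shared window pulls them apart. The test of the difference passed for 27 features against the preceding step (0.272%) and for 5 against the following one (0.0503%). Both counts rested on single arrays. The first was 0 without 180 min, 2 without 360 or 420 min, 8 without 90 min, 10 without 150 min, 14 without 60 min, 97 without 120 min and 168 without 300 min. The second was 0 without 360 min, 3 without 180 min, 11 without 300 min, 13 without 420 min, 102 without 480 min and 169 without 240 min. With all arrays, 1086 features had an unadjusted p under 0.05 for the first difference and 1265 for the second by limma.

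Fgf21, Sesn2 and Lrrc75b rose in the preceding step and fell in this one. Fgf21 went by 1.06 and then by -1.42, Sesn2 by 1.13 and then by -0.94, and Lrrc75b by 1.14 and then by -1.19 on the log2 scale. Lrrc75b was at 8.69, 8.45 and 8.06 in the earlier window and 7.53, 6.94 and 7.18 in the later one, with no overlap (2.28-fold lower, adjusted p = 0.000568). The difference between the steps was -2.33 (SE 0.32, adjusted p = 0.00340) for Lrrc75b, -2.08 (adjusted p = 0.00797) for Sesn2 and -2.48 (adjusted p = 0.0328) for Fgf21, the last resting partly on signals below 6.41. Fgfr2, a receptor for fibroblast growth factors, had been brightest at 150 to 240 min (12.17, 12.08 and 12.14) and stood at 11.73, 11.29 and 11.18 afterwards, with changes of 0.71 and -0.73. Jdp2, a partner of Jun and ATF proteins that represses transcription, had changes of 0.81 and -0.83. Without 420 min the falls of Fgfr2 and Jdp2 did not pass (adjusted p = 0.0548 and 0.0829).

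Il17rd, a membrane inhibitor of fibroblast growth factor receptors, went the other way. It was at 7.28, 6.96 and 7.60 and then at 7.71, 8.60 and 8.91, fell by 1.06 in the preceding step and rose 2.19-fold in this one (adjusted p = 0.00352), a difference of 2.18 (adjusted p = 0.0190). Tgfbr2, a receptor of transforming growth factor beta, fell by 1.20 and then rose by 0.66. Midn, which promotes proteasomal degradation of nuclear proteins, was at 11.31, 11.23 and 11.64 and then at 12.09, 12.41 and 12.44, and rose by 0.92 after a change of -0.17 that did not pass. Midn had stood at 12.30 at 0 min and 11.35 at 120 min, so its later values were near the starting level. Mob3a rose by 0.49 after falling by 0.62, and Imp3, a nucleolar ribosome assembly factor, by 0.37 after falling by 0.48. The rises of Tgfbr2, Mob3a and Imp3 in this step did not pass without 360 min (adjusted p = 0.114, 0.121 and 0.131), nor without 180 or 420 min. Those of Tgfbr2 and Imp3 ended without 150 min, and those of Mob3a and Imp3 without 240 min. The call of Imp3 was lost under 10 of 18 alternatives, and its change was 0.15 with a spline over all times and 0.23 between 120 to 180 and 360 to 480 min.

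Against the following step, the 5 genes were Gucy1b2, Fbp1 and Kcnd2, whose rise stopped, and Slc9a3r2 and Akap12, whose fall turned. Kcnd2, a voltage-gated potassium channel, was at 6.39, 6.48 and 6.70 and then at 7.28, 7.46 and 7.59. It rose by a measured 0.92 (adjusted p = 9.76e-05) and had a change of -0.30 in the following step that did not pass. Its values up to 150 min lay below 6.41, where background cannot be separated, and it passed the filter through its later arrays. Gucy1b2 and Fbp1 had following changes of -0.18 and -0.37 that did not pass. Akap12, a scaffold for protein kinase A, was at 8.80, 8.49 and 8.10 and then at 7.47, 7.41 and 7.29, fell 2.11-fold (adjusted p = 0.000184) and rose by 0.56 in the following step. Slc9a3r2, a scaffold of membrane transporters, fell by 0.79 to signals between 6.05 and 6.48, at the level of the filter, and then rose by 0.69. Adjusted p for these differences lay between 0.00577 (Kcnd2, Slc9a3r2 and Akap12) and 0.0192 (Fbp1).

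**Figure D5:**
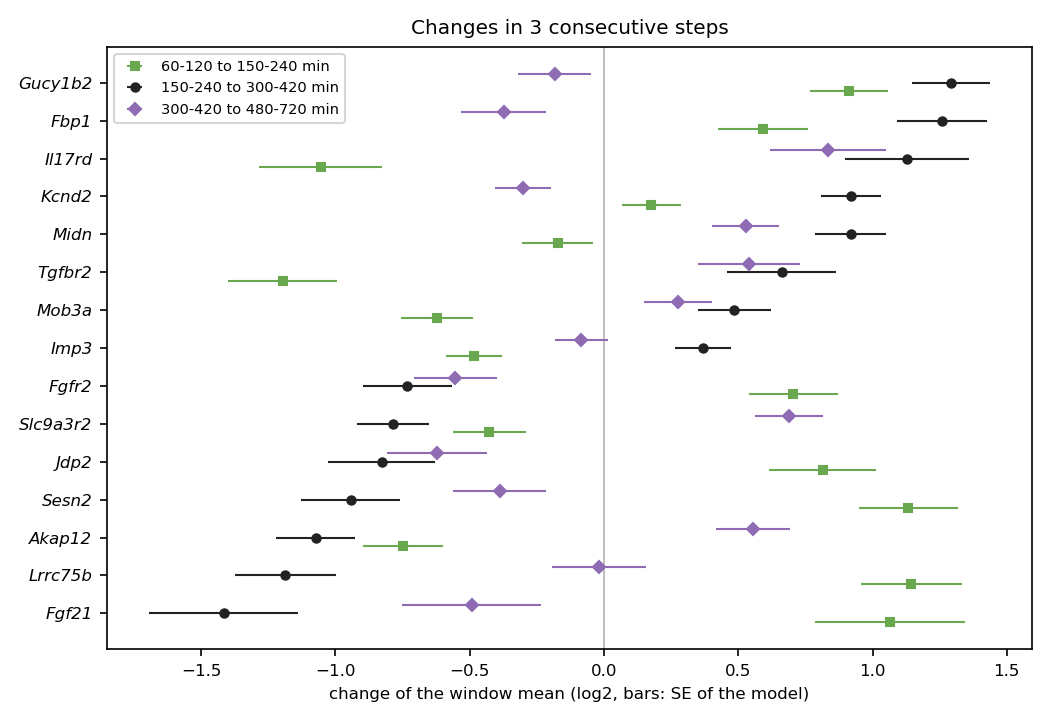
Change of the window mean (log2, horizontal axis, bars are the SE of the model) in 3 consecutive steps for the 15 genes whose change in the 150-240 to 300-420 min step differed most from the step before or the step after. Fgf21, Sesn2 and Lrrc75b lie right of 0 in the preceding step and left of 0 in this one. The steps share arrays.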

How the data were processed

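The deposited table holds 1 value per probe and array for 19949 probes on 17 arrays. Per the labels' protocols, RNA was prepared with the Qiagen RNeasy micro kit and given a biotin label in the amplification by Illumina's TotalPrep kit. The labels state no unit, and the deposited values were taken as log2 signals from their range of 5.14 to 15.47, while array medians ran from 6.40 to 6.42. The scanner software, background correction and normalization were not given in the sources used here. There is no detection p-value, and precision is limited by how few arrays there are.

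Of the probes, 18351 had 1 gene symbol in the platform annotation, 0 had several and 1598 had none. Symbols were looked up in the RefSeq gene table of GRCm38.p6 by gene identifier for 16482 probes and by accession for 956, and 913 were kept as given. The lookup changed 305 symbols. Each gene was represented by its probe of highest mean, and no named gene had another. Features with a mean below 6.41, the median over probes, were left out, which kept 9940. Values were used as deposited.

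The 17 arrays were grouped into 5 windows (0 to 45, 60 to 120, 150 to 240, 300 to 420 and 480 to 720 min), and limma 3.58.1 in R 4.3.3 fitted window means with empirical Bayes moderation and 12 residual degrees of freedom. The contrasts were the step, its neighbours and the differences between them, with Benjamini-Hochberg adjustment over all features and a threshold of 0.05. The rule for the genes named took Atf3 and Atf4, the 12 largest rises and 12 largest falls without overlap, up to 5 genes per list and up to 5 per direction for each difference between steps. Other list members are given as counts. Those singled out beyond the rule (Cebpb, Gpt2, Trib3, Ddit3, Asns, Psat1, Phgdh, Dusp6, Egr1, Mki67, Cdk1, Myc, Sox2, Vim, Olig1, Sox10, Dll3, Id4, Gins2, Mcm2, Mcm4, Mcm6, Mrto4 and Polr1a) were chosen after their values were seen. Their calls, and that of Atf3, were not followed gene by gene under the alternatives. The windows, the 23 gene lists and the named genes were chosen with earlier results of these data known. Alternatives covered the arrays fitted, the filter, scaling, probe choice, variance model, array weights, a spline, a slope, the window limits and leaving out each array.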

Additional observations from a re-analysis of the deposited data

Results flagged for a closer look

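These genes were set apart by a test of the difference between their change from 150-240 to 300-420 min and their change in a neighbouring step (limma, adjusted over 9940 features). Against the preceding step the difference was above 0 in Il17rd (2.18, adjusted p = 0.0190), Tgfbr2 (1.86, adjusted p = 0.0273), Mob3a (1.11, adjusted p = 0.0435), Midn (1.09, adjusted p = 0.0435) and Imp3 (0.85, adjusted p = 0.0463). It was below 0 in Fgf21 (-2.48, adjusted p = 0.0328), Lrrc75b (-2.33, adjusted p = 0.00340), Sesn2 (-2.08, adjusted p = 0.00798), Jdp2 (-1.64, adjusted p = 0.0435) and Fgfr2 (-1.44, adjusted p = 0.0343). Against the following step it was above 0 in Fbp1 (1.63, adjusted p = 0.0192), Gucy1b2 (1.48, adjusted p = 0.0135) and Kcnd2 (1.22, adjusted p = 0.00577), and below 0 in Akap12 (-1.63, adjusted p = 0.00577) and Slc9a3r2 (-1.47, adjusted p = 0.00577). Signals of Fgf21 at 60, 360 and 420 min lay below 6.41, so its value is the one measured near background. The same holds for Kcnd2 at 150 min and Slc9a3r2 at 300 and 360 min. The steps compared share a window, and the causes were not tested. Without 180 min no feature passed against the preceding step, and without 360 min none against the following one, by limma.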

How the results depend on the processing

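No feature was called in the opposite direction under any of the 18 alternatives, and the share of calls that were rises stayed between 41.6% and 50.2% (44.5% as reported). Of 86 named genes called with the filter, 44 passed under every alternative that tested them, 16 were lost under 1 or 2 and 26 under 3 or more. The filter at the 75th percentile left out the dimmer of these genes, which had 17 alternatives and not 18. Beside single arrays, the calls of Cited2, Creld2, Cyp51, Dhcr7, Egr2, Etv1, Id3, Jun and Tgfbr2 ended without the filter, and those of Creld2, Dhcr7, Efnb1, Egr2, Hes5, Hopx, Id3, Imp3, Ulk1 and Wipi2 with the 6 arrays alone. The slope ended the calls of Imp3, Mvd and Neu1, quantile normalization that of Id3, a trended, robust variance that of Olig2, and leaving out both 240 and 300 min those of Etv1, Imp3 and Jun. Imp3 alone was also lost with the spline and with the windows of 120 to 180 and 360 to 480 min. The counts of calls moved more. Against 468 rises and 584 falls, a filter at the 75th percentile of probe means gave 227 and 263 of fewer features tested, a spline over all times 1468 and 1457, and windows of 120 to 180 against 360 to 480 min 1363 and 1378. The 6 arrays alone gave 303 rises and array weights 779. Leaving out 1 of the 6 arrays gave 151 to 590 rises and 212 to 705 falls. Among gene list members, 27 rose and 42 fell. Of these counts the rises were 11 with the stricter filter, 41 with array weights, 41 with a slope over the 6 arrays, 76 with the spline and 72 with the windows of 120 to 180 and 360 to 480 min, and the falls 85 with the spline and 81 with those windows. Leaving out 1 array gave 7 to 34 rises and 21 to 48 falls among them. The 27 features that differed from the preceding step were 16 without the filter and 0 to 168 leaving out 1 array, and the 5 that differed from the following step were 11 with a trended, robust variance and 0 to 169 leaving out 1 array. Where a count was 0, the limma fit to all arrays had 1086 and 1265 features at an unadjusted p under 0.05. Features without overlap numbered 694 above and 654 below with the stricter filter, which tests fewer features. Apart from the stricter filter, the cause of these shifts was not tested. No paired analysis was possible because the labels give 1 array per time and no replicate numbers that the windows share. Whether the arrays come from 1 culture or several is not given in the labels. Gradual change within a window widens the spread that the test uses, and signals near 6.41 cannot be separated from background.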
